A study of Vitis vinifera with 4 samples.

Results

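The events described are binding events of NAC61 that carried many reads but gained little significance from each of them. They were selected on 2 measured values of the single list of NAC61 binding events, outside the sequences not placed on a chromosome (chr00). The number of HALO-NAC61 reads assigned to the event had to reach the read limit, which is the upper quartile of the events on chromosomes, and the −log10 p against the control had to be below 0.08 for each of those reads. They numbered 419, which was 4.99% of the 8389 events on chromosomes, of 8558 events in all, and 19.9% of the 2102 events that reached the read limit. These 419 are called low-significance events below, and the remaining 1683 events that reached it are called other high-read events. DAP-seq was run with 2 replicates of HALO-NAC61 and 2 replicates of a GST-HALO control, both fusion proteins being translated in vitro in reticulocyte lysate. Each was incubated with sheared DNA of young ‘Syrah’ leaves. No group carried a transgene or a treatment of the plant, and the DNA was the same kind in both groups. Reads were placed on the PN40024 12X.v2 assembly, which is of another genotype than the DNA, and each event is a 201 bp interval that is given here by its summit on that assembly. The list pools the replicates, so no event has a value per replicate, no SD can be given, and every comparison below is between events of this list.

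NAC transcription factors are a family of plant regulators that bind DNA through a conserved N-terminal NAC domain, usually at short sites with a CACG core. DAP-seq shows which naked genomic fragments a tagged protein retains in vitro, and a control protein without DNA-binding specificity shows which fragments are recovered anyway. The significance of an event therefore rests on 2 counts, the reads with the tagged factor and the reads at the same place with the control.

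A k-mer, the short sequence that the peak caller tied to an event, was given for 28 of the 74 low-significance events whose gene could be looked up. Of these, 18 held, on either strand, a 7-base motif in the form CACGCAA, in the form CACGTCA, in the form CACGCCA or in the form CAAGCAA. The study derived this motif from top-scoring peaks of the same DAP-seq, so finding it in k-mers of these events is a description. A k-mer was given for 37.8% of these listed events, 39.8% of listed other high-read events and 39.9% of all listed events on chromosomes. Shown are 8 of the 18, picked to cover the 4 forms and genes described below, so that the sequences can be read beside their events. Each is written 5′ to 3′ on the strand that reads CACG or CAAG, with the motif in capitals, beside the gene of its event.
COP9 signalosome complex subunit 1 (VIT_15s0048g01980): aaCACGCAAc
Calcium-transporting ATPase 1, ECA1 (VIT_08s0040g02830): aCACGCAAg
Binding / zinc ion binding (VIT_11s0016g04930): aaCACGCAAgc
Diacylglycerol kinase 1 (VIT_17s0000g06970): aCACGCAAc
Aldo/keto reductase AKR (VIT_05s0062g01010): aCACGTCAt
Alpha-dioxygenase 2 (VIT_17s0000g02700): aCACGTCA
AarF domain containing kinase (VIT_12s0057g01150): CACGCCAt
Ankyrin repeat (VIT_13s0106g00030): aCAAGCAAt
The form CACGCAA was the most common, at 9 of the 28 events, and CACGTCA followed with 5. The forms CACGCCA and CAAGCAA stood at 2 events each, and 10 events had a k-mer without the motif. All listed events on chromosomes with a k-mer ran in the same order at the top, with 261 of 741 for CACGCAA and 117 for CACGTCA.

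Low-significance events had a median of 128 reads, with quartiles of 120 and 144 and a highest value of 1614.7. The other high-read events had a median of 140 reads, and their highest value was 2511. The −log10 p was between 2.53 and 113.62 in the low-significance events (median 8.38), against 9.4 to 297.5 in the other high-read events (median 19.23). The limits used both values, so these differences are a description of how the events were chosen. The −log10 q, the p adjusted over all events, was at least 5 in 396 of the 419 low-significance events (94.5%) and in all 1683 other high-read events, beside 66.7% of all events on chromosomes. Low significance here is thus relative to the number of reads, since most of the events stood far from the −log10 q of 2 at which the list ends.

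Most low-significance events lay close to the lower limit of reads. Of the 419, 330 (78.8%) had fewer than 150 reads, 26 had 200 or more, and 16 lay exactly on it. Their share of high-read events was 29.0% (230 of 793) below 130 reads, 17.6% (100 of 568) at 130 to below 150, 11.8% (63 of 536) at 150 to below 200 and 8.20% (15 of 183) at 200 to below 400. It was 50% again (11 of 22, 95% Wilson interval 30.7 to 69.3%) at 400 reads and above. Most of those 11 lay at a few places described below, some of them close together, while the interval treats them as independent. Below the read limit, 3284 of 6287 events (52.2%) also had a −log10 p below 0.08 for each read, which with the 419 made 44.1% of all events on chromosomes. The highest number of reads below the limit was 113.9, so the limit does not separate a group that stands apart. All intervals here cover counting error only.

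**Figure D1:**
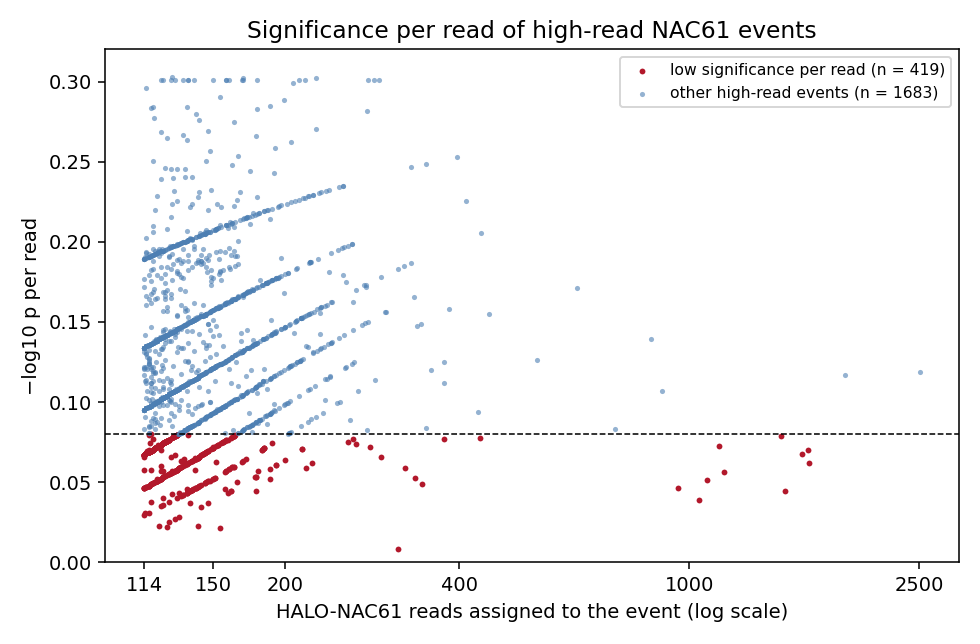
Each point is a high-read event, with its HALO-NAC61 reads on a log scale on the x axis and its −log10 p divided by those reads on the y axis; the dashed line is the limit of 0.08. Points lie on rising bands that cross the limit, and 10 of the low-significance events stand far to the right, between 955.5 and 1614.7 reads.

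The list has no column for the control, but the significance values allowed the control to be solved for each event. High-read events with the same number of reads shared a few values of −log10 p. The 40 events with exactly 120 reads had 9 different values, of which 6.1 came 7 times, 8.64 came 5 times, 12.02 came 11 times, 16.61 came 9 times and 23.15 came 4 times. Taken as a binomial test at equal odds, these values gave 56.0, 45, 34.01, 23 and 12 control reads after scaling. The solved numbers rose by a step of 11.17 to 11.2, rounded up, and each step was read as 1 control read given that weight. That 1 step is 1 control read is an inference from the values, since the control reads themselves were not analysed here. The weight of a step is larger than the ratio of the library sizes given for both groups, and why was not tested. Steps are called control reads below on that reading.

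The solved control restates the limits in reads, since at a given number of reads a low −log10 p requires a high control, and the values that follow are a description. Of the 378 low-significance events with a whole number of reads, 355 (93.9%) fell on a step, and for the other 23 and the 41 events whose reads were not whole no step is given. Those 355 had between 4 and 51 control reads, with a median of 5. Of them, 145 had 4, 127 had 5 and 54 had 6, which together made 91.8%. The other high-read events on a step numbered 1217, with a median of 3 control reads and with 0 to 3 control reads at 942 of them (77.4%). No low-significance event had fewer than 4 control reads. This and the difference in medians follow from the limits. The scaled control had a median of 56.0 in the low-significance events (40.4 to 680), against 32.2 in the other high-read events, and reads over scaled control had a median of 2.55 (1.27 to 3.06).

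**Figure D2:**
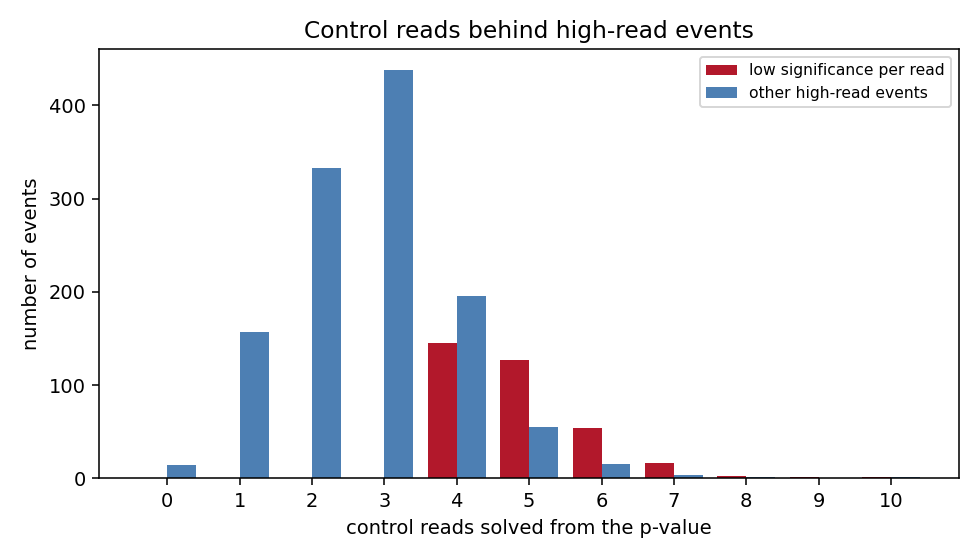
Bars give the number of events (y axis) by the control reads solved from the p-value (x axis, 0 to 10) for low-significance events and other high-read events with whole reads on a step. Low-significance events start at 4 control reads and peak there with 145 events, while the other high-read events peak at 3 with 438 events.

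These events are named for many reads over a high control background. The solved control cannot check that name, because it is computed from the reads and the p that chose them. If 1 step is 1 control read, a count of 4 has an exact Poisson 95% interval of 1.09 to 10.2, a count of 5 one of 1.62 to 11.7 and a count of 3 one of 0.619 to 8.77, so the intervals of neighbouring steps overlap widely. At 120 reads, an event with 3 control reads had a −log10 p of 12.02 and was not among the low-significance events, whereas an event with 4 had 8.64 and was. By computation from the same test, 4 control reads passed the limit at 130 reads, with 0.0795 for each read, while at 150 reads 5 were needed and at 200 reads 6. At these numbers of reads, 1 control read more or less thus set on which side of the limit an event fell.

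The events nearest to the limit differed in both counts. Just inside lay an event on chromosome 7 at 26558558 with 164 reads, a −log10 p of 13.06 and 5 control reads (0.0796 for each read), an event on chromosome 7 at 23917611 with 116 reads and 9.24 (0.0797), and an event on chromosome 1 at 9298287 with 117 reads and 9.35 (0.0799). Just outside lay an event on chromosome 1 at 12498763 with 202 reads, 16.18 and 6 control reads (0.0801), and events at 19784258 on chromosome 4 and at 7260172 on chromosome 1, both with 131 reads, 10.51 and 4 control reads (0.0802). The event on a step just inside the limit thus had 5 control reads, and those just outside it had 4 to 6. Their NAC61 reads differed as well, so the control reads alone did not set their side.

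A small set of low-significance events stood apart in the number of reads. The 10 low-significance events with the most reads all had 955.5 reads or more, and after them came an event with 434. They lay at 3 places only, 6 on chromosome 10, 3 on chromosome 14 and 1 on chromosome 3. Only 2 other high-read events of the list had 900 reads or more, and both lay beside these, on chromosomes 10 and 14. The 10 events had 392 to 680 scaled control reads under their NAC61 reads. At so many reads a solved control of this size follows from the limits, so it is a description.

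On chromosome 10, 6 low-significance events lay between 16228123 and 16317234, within 89.1 kb. In order along the chromosome they had 1040, 1148, 1440, 1466.3, 1074.1 and 1567 reads, over a scaled control of 515, 470.2, 470.0, 680, 466 and 571. The events with whole reads on a step had 46 control reads at 16228123, 42 at 16273121 and 51 at 16317234. Their −log10 p was 40.63, 65.02, 113.62, 65.59, 54.91 and 106.27 in the same order, so the event with the lowest significance had 2.02 reads for each scaled control read and the event with the highest 3.06. The seventh event inside these bounds, at 16274910, had 898 reads over a scaled control of 223 and a −log10 p of 95.96. The event with the most reads of all events on chromosomes, 2511, lay 4.69 kb below the first, at 16223438, with 49 control reads, a −log10 p of 297.5 and 0.118 for each read. The control at that event was thus of the same size as at its low-significance neighbours, and it differed from them in the NAC61 reads. Listed genes, here and below, are only those of the events whose gene could be looked up, so nearer genes may be missing. No listed gene lay within this stretch. The nearest were VIT_10s0092g00280, the mitochondrial ATP synthase epsilon chain, 954 kb below it, and VIT_00s0125g00270, Cyclin-T1-5, 709.5 kb above it.

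On chromosome 14, 3 low-significance events lay within 1.78 kb, between 12263745 and 12265522. They had 1614.7, 1605.3 and 955.5 reads, the first of these being the highest number in any low-significance event, over a scaled control of 625, 573 and 437, and a −log10 p of 99.89, 112.25 and 44.39. An event between them, at 12264980, had 1859.5 reads over a scaled control of 415, with a −log10 p of 217.05, and was not among the low-significance events. None of these 4 had a whole number of reads, and the peak caller can divide reads between close events. The first 2 summits were 417 bp apart. The nearest listed genes were an Acyl-CoA ligase (VIT_14s0036g00870), 1144 kb below, and ATRAD3 (VIT_14s0036g01530), 659 kb above.

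**Figure D3:**
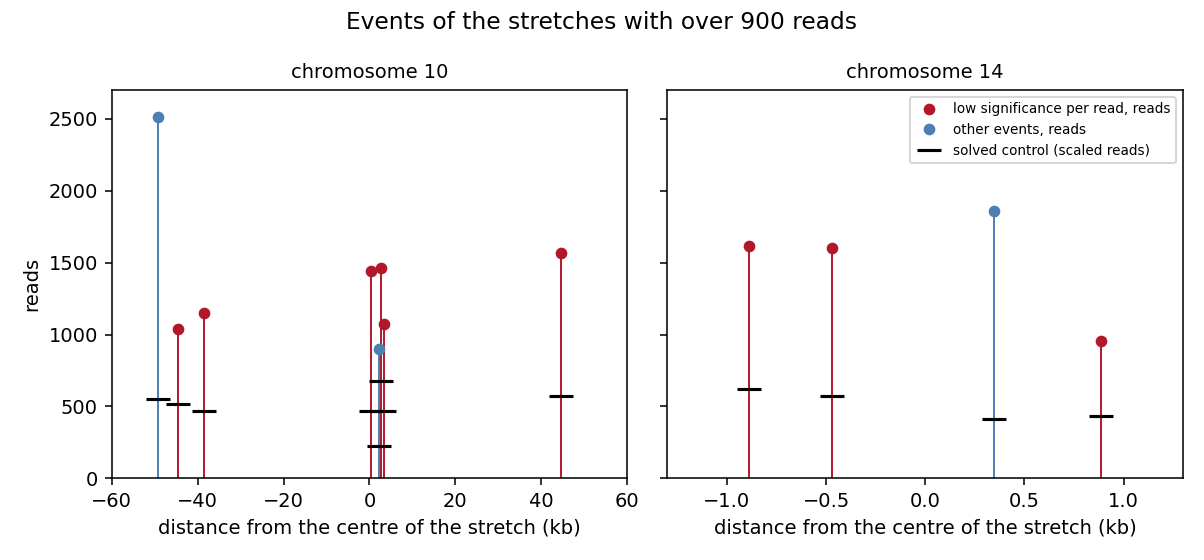
Points give the HALO-NAC61 reads (y axis) of low-significance events and of other events by their distance in kb from the centre of the stretch on chromosome 10 (left) and on chromosome 14 (right), and black bars give the scaled control solved for each event. Under low-significance events the bars stand between 466 and 680 scaled reads on chromosome 10 and between 437 and 625 on chromosome 14. Under the other events they stand at 549 and 223 on chromosome 10 and at 415 on chromosome 14.

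On chromosome 3 the event at 1311850 stood alone. It had 1126 reads, 35 control reads (392 after scaling) and a −log10 p of 81.84, while the 6 events within 100 kb of it had only 46 to 103 reads, among them one with 71 reads at a distance of 1.43 kb. The nearest listed genes on each side were a bHLH transcription factor (VIT_03s0038g01790) at 56.5 kb and an Amidase (VIT_03s0038g02000) at 71.7 kb.

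Below these 10, the low-significance events with the most reads were on chromosome 6 at 5472349 (434 reads, −log10 p 33.72, 13 control reads), on chromosome 9 at 14087390 (376.1 reads, 29.07) and on chromosome 5 at 2100530 (345 reads, 16.82, 14 control reads) and 1458106 (335 reads, 17.73, 13 control reads). An event on chromosome 12 at 9466550 had the lowest significance for its reads of all events on chromosomes. It had 313 reads over 22 control reads, or 247 after scaling, so that reads exceeded the scaled control 1.27 times and the −log10 p was 2.53. It lay 35.5 kb upstream of an AarF domain containing kinase (VIT_12s0057g01150), and its k-mer, CACGCCAt, held the motif. The next lowest for their reads were an event on chromosome 17 at 7807966 with 154.5 reads and a −log10 p of 3.35, which lay in Diacylglycerol kinase 1, and an event on chromosome 8 at 1716329 with 124.7 reads and 2.72.

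Stretches of low-significance events were otherwise few and small. When events no more than 100 kb apart were joined, 102 of the 419 (24.3%, 95% Wilson interval 20.5 to 28.7%) fell into stretches, of which 33 were pairs, 7 held 3 events and 3 held more, and 317 events stayed single. Joined among themselves in the same way, 1135 of the 1683 other high-read events (67.4%) fell into stretches. They are more numerous on the same chromosomes, so these shares are not directly comparable. On chromosome 1, 5 low-significance events lay between 6032257 and 6172494, a span of 140 kb, with 123, 214, 128, 117 and 130 reads, a −log10 p of 6.52, 15.11, 9.99, 5.69 and 10.34, and 5, 7, 4, 5 and 4 control reads. The first lay 2692 bp upstream of a Cytochrome b561 gene (VIT_01s0011g06230), whose product carries electrons across membranes, and the last 3097 bp past the start and just beyond the end of BPC2 (VIT_01s0011g06380), a basic pentacysteine regulator. Between them lay 4 other events, of which 2 reached the read limit, namely 140.4 with a −log10 p of 26.2 and 181 with 16.12. On chromosome 14, 4 low-significance events lay between 25510341 and 25683329, within 173 kb, with 127, 115, 116 and 116 reads and 5, 4, 4 and 6 control reads, among 12 events of which 8 reached the read limit. Both stretches thus held other high-read events among the low-significance ones.

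Low-significance events were about as often beside a low-significance event as the other high-read events were. The nearest high-read event was itself a low-significance event for 76 of the 419 (18.1%, 95% Wilson interval 14.7 to 22.1%) and for 344 of the 1683 other high-read events (20.4%, 18.6 to 22.4%), beside their share of 19.9% of all high-read events. The distance to the nearest high-read event had a median of 44.7 kb from low-significance events and 43.3 kb from the other high-read events, and one lay within 100 kb of 71.6% and 74.3% of them. Counting all events, the nearest lay at a median of 12.4 kb from low-significance events and 9.91 kb from the other high-read events. Another event within 500 bp was found at 16 of the 419 (3.82%, 2.36 to 6.11%) and at 92 of the 1683 (5.47%, 4.48 to 6.66%), and within 200 bp at 0 of the 419 (upper Wilson bound 0.908%) and at 17 of the 1683 (1.01%). Over all 8389 events on chromosomes these shares were 5.83% (489) within 500 bp and 0.930% (78) within 200 bp. Each pair of these intervals for 500 bp and for the nearest high-read event overlapped, and neighbouring events are not independent of each other, so no test was made.

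Every chromosome held low-significance events, from 10 on chromosomes 9 and 15 to 40 on chromosome 18, with 39 on chromosome 8 and 37 on chromosome 1. They made up between 14.5% of the high-read events on chromosome 12 (12 of 83, 95% Wilson interval 8.47 to 23.6%) and 27.0% on chromosome 10 (24 of 89, 18.8 to 36.997%). On all 19 chromosomes the interval held the 19.9% of the whole. The high place of chromosome 10 rested partly on its stretch, since without the 8 high-read events there it was 22.2% (18 of 81, 14.5 to 32.4%). For each Mb between the first and last event of a chromosome, low-significance events ranged from 0.439 on chromosome 9 to 1.74 on chromosome 8. In windows of 1 Mb, a low-significance event was present in 246 of the 417 windows that held a high-read event, 3 or more were present in 43, and the most was 6, from 3 to 4 Mb on chromosome 11 (of 10 high-read events), from 16 to 17 Mb on chromosome 10 (of 11) and from 3 to 4 Mb on chromosome 1 (of 17).

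**Figure D4:**
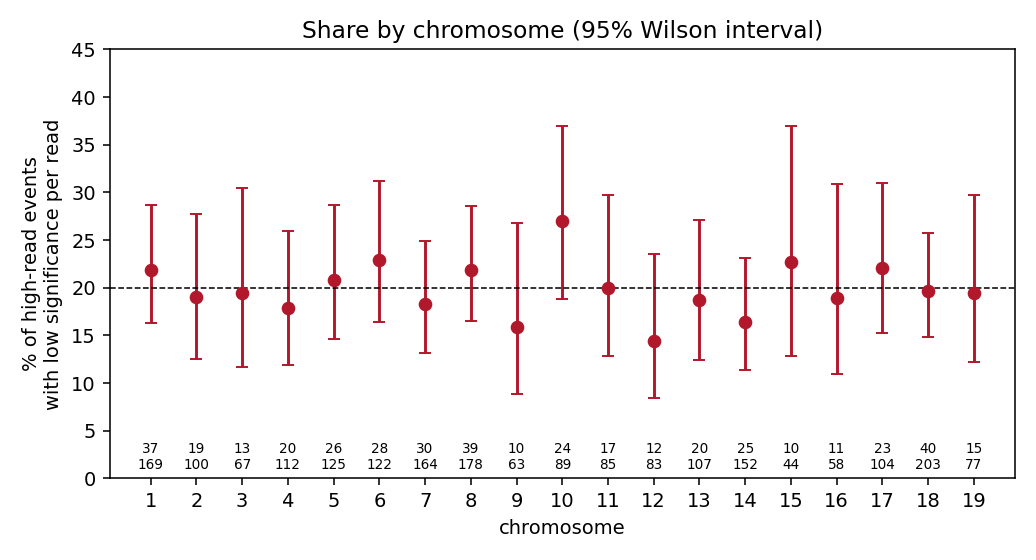
Points give the share of high-read events that were low-significance events (%, y axis) for each of the 19 chromosomes (x axis) with 95% Wilson intervals, and the 2 rows of numbers give the low-significance events and all high-read events. The dashed line is the overall share of 19.9%, and each interval crosses it.

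A gene was known for the 74 low-significance events (17.7%) that were in the listed part of the gene assignments, which runs alphabetically by annotation and so is no random sample, and the genes of the other 345 are not given. The 74 events were assigned to 74 different genes. Of the 74, 20 (27.0%, 95% Wilson interval 18.2 to 38.1%) had their summit in the promoter, taken as 3 kb upstream to 100 bp downstream of the transcription start site (TSS), against 96 of 369 listed other high-read events (26.02%) and 536 of 1857 listed events on chromosomes (28.9%). Inside the gene lay 34 (45.9%, 35.1 to 57.2%), against 149 other high-read events (40.4%) and 666 of all (35.9%). The remaining events were within 3 kb past the gene (8) or farther from it (12). The share with a k-mer was 37.8% (28 of 74, 27.6 to 49.2%) against 39.8% (147 of 369), and of these k-mers 64.3% (18 of 28, 45.8 to 79.3%) against 74.8% (110 of 147, 67.2 to 81.2%) held the motif. The core CACG was in 21 of the 28 k-mers (75%, 56.6 to 87.3%), against 133 of 147 (90.5%, 84.6 to 94.2%). Of the 741 k-mers of all listed events on chromosomes, 508 (68.6%) held the motif and 598 (80.7%) held the core. Motif and k-mers both come from events of this list, so these shares are no independent evidence on either set. The intervals of low-significance and other high-read events overlapped for position, k-mer, motif and core at these numbers, and the values lay farthest apart for the core.

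**Figure D5:**
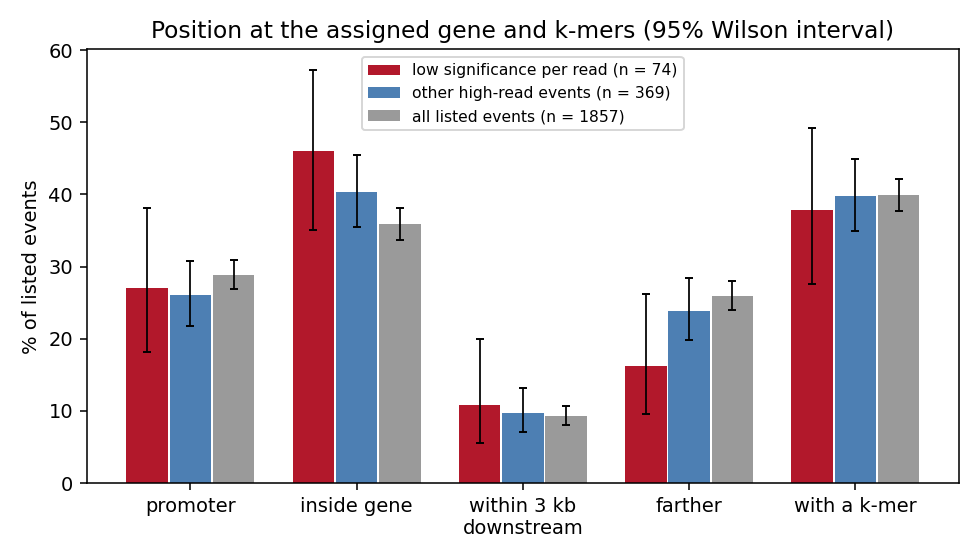
Bars give the percent of listed events (y axis) by position at the assigned gene and the percent with a k-mer, for low-significance events (n = 74), other high-read events (n = 369) and all listed events (n = 1857), with 95% Wilson intervals. The intervals of low-significance and other high-read events overlap in every class.

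Among listed promoter events, the shortest distance was at BCL2 binding anthogene (VIT_10s0003g04270), with 115 reads 152 bp upstream of the TSS and 4 control reads. The mu 1 subunit of the AP-4 adaptor complex (VIT_18s0001g13000), which sorts cargo into vesicles, followed with 133 reads at 156 bp, a −log10 p of 5.58 and 6 control reads. The event at the AP-4 subunit had the k-mer CACGTCAt. An event 172 bp upstream of a C2 domain containing protein (VIT_08s0007g00430) had 127.6 reads and a −log10 p of 5.47. Chitinase (VIT_04s0008g00140), an enzyme that breaks down chitin of fungal walls, had 130 reads at 219 bp, a −log10 p of 7.53 and 5 control reads. Alpha-dioxygenase 2 (VIT_17s0000g02700), which oxidises fatty acids, had 131 reads at 458 bp, and with 7 control reads its −log10 p was only 3.69.

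Other promoter events with more reads lay farther from the TSS. The ARP2/3 complex 21 kDa subunit (VIT_11s0118g00300), part of the complex that starts actin branches, had the most reads of the listed promoter events, 179.3 at 2225 bp. Its −log10 p was 10.25. An Amino acid transport protein (VIT_19s0027g01880) had 158 reads at 2816 bp, an Armadillo protein (VIT_00s0225g00100) 151.9 reads at 469 bp and Cofilin (VIT_06s0004g04280), which cuts actin filaments, 146 reads at 1750 bp. Between 500 and 1000 bp lay events of an Aminotransferase (VIT_09s0096g00920, 138 reads), CYP72A53v1 (VIT_13s0084g00070, 123 reads), an Ankyrin repeat protein (VIT_13s0106g00030, 139.8 reads), an ADP-ribosylation factor (VIT_07s0129g01090, at the read limit) and a bHLH factor (VIT_18s0001g07410, 135 reads at 920 bp, −log10 p 5.83). The others, a Calmodulin binding protein (VIT_17s0000g03390), a zinc ion binding protein (VIT_11s0016g04930), ATBPM2 (VIT_07s0104g00570), an Ankyrin repeat protein (VIT_07s0130g00470), Aminopeptidase N (VIT_02s0025g03270) and Cytochrome b561, had 115 to 130 reads. The listed promoter events thus had at most 179.3 reads, and how many reads unlisted promoter events had is not known.

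Inside genes, 2 listed low-significance events passed 200 reads. Cysteine protease CP1 (VIT_18s0001g09990) had 262 reads 190 bp from the TSS, with 8 control reads and a −log10 p of 20.19. Subunit 1 of the COP9 signalosome (VIT_15s0048g01980), which regulates ubiquitin ligases, had 257 reads at 277 bp, also with 8 control reads, and 19.32, and its k-mer, aaCACGCAAc, was among the longest with the motif. An aldo/keto reductase (VIT_05s0062g01010) had 193 reads and 7 control reads. The calcium pump ECA1 (VIT_08s0040g02830) had 171 reads and the germacrene D synthase TPS24 (VIT_19s0014g02590), a terpene synthase, 163 reads, with 6 control reads each. An Armadillo repeat protein (VIT_04s0008g05830) followed with 160 reads, and a beta carbonic anhydrase (VIT_01s0127g00720) with 159. Apocytochrome b (VIT_16s0022g00160), a protein that plants encode in the mitochondrial genome, also had 159 reads, with 7 control reads and a −log10 p of 6.93. It was 1 of 2 genes of proteins of organelle genomes among all listed events, and no other high-read event was listed at such a gene. BTB-POZ protein ATBPM2 on chromosome 5 (VIT_05s0020g02520) had 153 reads with 5 control reads.

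Of the groups of genes that were looked up by annotation, transcription regulators numbered 9 of 74 (12.2%), against 25 of 369 listed other high-read events (6.78%) and 127 of 1857 (6.84%) of all. VIT_11s0016g04930 is counted among the 9 only by its annotation as zinc ion binding, and without it there were 8. They included Calmodulin-binding transcription activator 6 (VIT_05s0077g01240, 280 reads 6356 bp upstream, −log10 p 20.14, 9 control reads), bZIP04 (VIT_02s0012g02250, 139 reads inside the gene), the bHLH factor of chromosome 18 given above and BEE3 (VIT_17s0000g03580, 131 reads), known in Arabidopsis from the response to brassinosteroids. Genes of hormone synthesis, transport and response numbered 8 (10.8%), against 21 (5.69%) and 113 (6.09%). Among them were an Auxin-independent growth promoter (VIT_05s0029g01340, 144 reads), the abscisic acid hydroxylase CYP707A2 (VIT_07s0031g00690, 124 reads), the auxin carrier AUX1 (VIT_08s0007g02030, 123 reads, −log10 p 4.96) and the abscisic acid receptor PYL8 (VIT_16s0050g02620, at the read limit, −log10 p 3.4). Calcium and calmodulin genes numbered 6 (8.11%), against 12 (3.25%) and 65 (3.50%), and included Calmodulin-7 (VIT_06s0009g01910, 150 reads) and a calcium-binding CML protein (VIT_01s0026g02590, 133.5 reads).

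Transporters made up a smaller share of the low-significance events, with 4 of 74 (5.41%), against 51 of 369 (13.8%) and 190 of 1857 (10.2%). Besides ECA1 and the amino acid transport protein, these were a cation-transporting ATPase (VIT_07s0130g00070, 164 reads 15.6 kb upstream) and an amino acid permease (VIT_03s0038g03900, 123 reads). Cytochromes P450 numbered 4 (5.41%), against 14 (3.79%) and 62 (3.34%), and cell wall and carbohydrate enzymes 4 (5.41%), against 14 (3.79%) and 64 (3.45%). The highest of the P450 genes by reads was CYP72A1 (VIT_19s0015g02910) with 157 reads, 23.2 kb upstream, and of the enzymes Alpha-L-fucosidase 2 (VIT_01s0137g00710) with 132 reads inside the gene. Chitinase and Beta-1,3 glucanase were the 2 defence genes (2.70%), against 7 (1.90%) and 45 (2.42%). Some genes stand in more than 1 group. The counts are small and the listed part is sorted by annotation, so these shares were not tested and nothing is drawn from their differences.

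At 23 of the 74 listed genes another listed event was assigned to the same gene. At 14 of the 23, some other event was at or above 0.08 for each read, and at 9, ECA1, API5 and Ceramide kinase (VIT_16s0013g01750) among them, every other event was below it too. The low-significance event had the most reads at 20 of the 23 genes, an order that the read limit favours. The following 5 pairs were chosen after their values were seen. In all 5, the event with the higher significance for its reads was nearer to the TSS. None is from the 4 genes, counted below, at which it was not nearer. At Diacylglycerol kinase 1 (VIT_17s0000g06970), which makes phosphatidic acid from diacylglycerol, the low-significance event 558 bp inside the gene had 154.5 reads over a scaled control of 101 and a −log10 p of 3.35, while an event 554 bp upstream of the TSS had 265 reads, 3 control reads and 45.09. At the ARP2/3 subunit, the promoter event with 179.3 reads had a scaled control of 76.5, against 193 reads, 3 control reads and a −log10 p of 27.75 at an event 320 bp inside the gene. At CYP72A53v1, the low-significance event 628 bp upstream had 123 reads, 4 control reads and 9.14, whereas an event 57 bp upstream had fewer reads, 91, but 1 control read and 15.76. Beta-1,3 glucanase (VIT_10s0003g02720) had reads just at the limit and a −log10 p of 5.29 at the low-significance event past the gene, and 118 reads and 13.39 at an event 394 bp upstream of the TSS. Calmodulin-binding transcription activator 6 had 280 reads and 9 control reads at the low-significance event and 125 reads and 3 control reads (−log10 p 13) at an event 308 bp inside the gene. Over the 14 genes with an event at or above 0.08, the event with the highest significance for its reads was nearer to the TSS than the low-significance event at 10 and was not nearer at 4. Diacylglycerol kinase 1 is among those 10 only by 554 against 558 bp. At the other 9 genes, the other event was nearer at Ceramide kinase and BEL1 homeotic protein 3 and was not nearer at the rest. Nothing is therefore drawn from these counts, and they were not tested.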

How the data were processed

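Both HALO-NAC61 and GST-HALO control libraries had 2 replicates. The authors trimmed reads with fastp (0.21.0 per the labels), aligned them with Bowtie2 (2.0 per the labels) to PN40024 12X.v2, removed reads of low mapping quality and called events with GEM in replicate mode, pooling replicates into 1 list, so control reads and depth per library were not analysed here. Signal values were deposited by the authors as HALO-NAC61 reads per event. The read limit was 114, the upper quartile of events on chromosomes. The −log10 p-value and −log10 q-value are those the authors' peak caller computed against the control. The authors' score grows with that signal and did not enter. Positions are the authors' 12X.v2 coordinates of summits.

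Control reads were solved from each −log10 p as the lower tail of a binomial test at 0.5, and read as steps of 11.185 scaled reads, rounded up, where the solved value lay within 0.1 of a step and the signal was whole within 0.001. The solving recovered the control in 99.4% of 1773 events simulated with the same binomial test. This checks the arithmetic only. It cannot show which test the peak caller used or what a step stands for. Genes, their coordinates and k-mers came from the 1879 events of the listed part of the study's gene assignments, while its fold values were not used. Shares have 95% Wilson intervals. Named were the events with the most reads, those of the largest stretches, those at the limits and those with the lowest significance for their reads, and genes of promoter events, of the inside events with the most reads and of the groups with 3 or more members. Where more than 4 genes fell into a group, the first 4 by reads were named. The gene pairs at the end were chosen after their values were seen. The limits, members and lists were chosen with earlier results of these data known. Alternatives covered both limits, the joining distance, the neighbour distance, the promoter length, the q-value in place of p, unplaced sequences and the test behind the solved control. Values were computed in Python 3.11.15 (pandas 2.3.3, scipy 1.17.1, numpy 2.4.6) and plotted with matplotlib 3.10.9.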

Additional observations from a re-analysis of the deposited data

Results flagged for a closer look

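On the sequences that are not placed on a chromosome, which the comparisons leave out, 28 of 59 events that reached the read limit also had a −log10 p below 0.08 for each read (47.5%, 95% Wilson interval 35.27 to 59.96%), against 19.9% (18.3 to 21.7%) on the chromosomes. They were noticed because they lie in data outside the main description. Events on these sequences numbered 169 in all.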

How the results depend on the processing

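Of 59 alternative values for 10 results, 37 stayed within the set range and 22 moved. All are counts, shares or a median, which cannot change sign. With a limit of 0.06 for each read there were 163 low-significance events (7.75% of high-read events, 11.04% within 100 kb of another), and with 0.10 there were 720 (34.3% and 38.6%). With at least 100 reads there were 724 (22.7% and 37.3%), and with at least 150 reads 89 (12.01% and 12.4%), of which 8.99% had another event within 500 bp, and of the 18 listed 16.7% were promoter events and 61.1% lay inside the gene. With q in place of p the share was 23.4%, and 29.5% lay within 100 kb of another. Within 50 kb or 200 kb of another lay 14.8% or 39.1%, another event lay within 200 bp or 1000 bp of 0% or 10.3%, and a promoter of 1 kb held 14.9%. Changes in the number of events follow from the limits, and those with another joining distance, neighbour distance or promoter length follow from these settings. The cause of the other changes was not tested. The median scaled control was 56.0, and 75.7 when solved from a Poisson test. No paired analysis was possible because the list pools the replicates, and for the same reason no replicate could be left out. Counts of 4 to 6 control reads have wide counting intervals, and the depth per library was not analysed.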
